A study of Homo sapiens with 8 samples.

Results

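The regions described here are distal sites of open chromatin that carried an active-type histone mark in both lines of the study. A member is a DNase I hypersensitive site (DHS) peak of PC9 cells that overlapped by at least 1 bp a DHS peak of PC9R cells, an H3K4me2 peak of PC9 and an H3K4me2 peak of PC9R, and lay more than 1 kb from every protein-coding transcription start site (TSS) of hg19. Of 19648 PC9 DHS peaks, 8495 overlapped a PC9R DHS, 5020 of these also overlapped H3K4me2 in both lines, and 4047 of the 5020 were within 1 kb of a coding TSS. The remaining 973 were the members, 4.95% of all PC9 DHS peaks (exact 95% binomial interval 4.65% to 5.27%, counting error only), 7.84% of the 12413 distal ones and 24.3% of the 4000 distal ones shared by both lines. Members were thus chosen by the presence of a peak in all 4 lists, so their peaks and scores are given as a description. They are called constant distal regions below, a name for the overlap of peak lists and not for equal signal. The lists were of unequal size, with 19648 DHS peaks in PC9 and 59600 in PC9R. H3K4me2 peaks numbered 85246 in PC9 and 117861 in PC9R. The part of list size in the class comparisons below was not tested.

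PC9 is a human lung adenocarcinoma line with an activating EGFR mutation, and gefitinib, a drug that blocks the EGFR kinase, inhibits its growth. PC9R was obtained from PC9 by treatment with gefitinib for 1 to 2 weeks, and cells of both lines were taken at passages 8 to 12. The samples comprised 1 DHS library, 1 H3K4me2 ChIP-seq library and 2 RNA-seq libraries of each line. With 1 peak list per line and assay, no statement on peaks has a replicate check, and since the labels do not call the RNA libraries of a line separate cultures, the RNA p-values reflect the variation among these libraries alone, which could be technical.

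Enhancers are stretches of DNA away from a gene's start that raise its transcription when transcription factors bind them. Bound enhancers lose nucleosomes, which leaves them open to DNase I, and the nucleosomes beside them carry methylated H3K4, of which the dimethyl form marks both promoters and enhancers. AP-1, a dimer of FOS and JUN family proteins induced downstream of EGFR and MAP kinases, opens many distal enhancers in epithelial cells, whereas SP and KLF factors bind GC-rich sites that are common in promoters.

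The sequences of 7 constant distal regions show the kinds of site the group held. EGFR_6, the region closest to the 1 kb limit, was taken by a rule, and the others were chosen after their values were seen, for a motif beside a gene described below. Regions are numbered along the chromosome within their nearest gene. Each sequence is the hg19 plus strand, 5′ to 3′, in lower case. Capitals mark motif matches on either strand, which are the AP-1 letters TGANTCA (EGFR_11, SEMA5A_2, JUN_3, NAV2_6, SPRED2_2), the CRE letters TGACGTC (FOS_1) and the SP/KLF letters GGGCGGG (EGFR_6).
EGFR_6: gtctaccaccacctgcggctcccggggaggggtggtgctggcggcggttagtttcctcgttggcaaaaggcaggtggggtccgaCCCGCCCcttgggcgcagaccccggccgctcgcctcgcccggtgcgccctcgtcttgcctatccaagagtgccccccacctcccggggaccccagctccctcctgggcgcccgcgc
FOS_1: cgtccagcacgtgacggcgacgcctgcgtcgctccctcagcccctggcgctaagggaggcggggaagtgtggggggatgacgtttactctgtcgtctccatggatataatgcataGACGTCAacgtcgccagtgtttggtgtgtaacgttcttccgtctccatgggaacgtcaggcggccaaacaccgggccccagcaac
EGFR_11: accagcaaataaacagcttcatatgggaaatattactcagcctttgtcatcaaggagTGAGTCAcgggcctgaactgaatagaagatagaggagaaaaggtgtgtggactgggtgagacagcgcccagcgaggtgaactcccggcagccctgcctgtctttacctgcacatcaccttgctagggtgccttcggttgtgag
SEMA5A_2: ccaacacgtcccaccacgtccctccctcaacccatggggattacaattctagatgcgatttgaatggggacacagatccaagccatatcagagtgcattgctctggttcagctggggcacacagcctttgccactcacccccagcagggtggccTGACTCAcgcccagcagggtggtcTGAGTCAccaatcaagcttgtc
JUN_3: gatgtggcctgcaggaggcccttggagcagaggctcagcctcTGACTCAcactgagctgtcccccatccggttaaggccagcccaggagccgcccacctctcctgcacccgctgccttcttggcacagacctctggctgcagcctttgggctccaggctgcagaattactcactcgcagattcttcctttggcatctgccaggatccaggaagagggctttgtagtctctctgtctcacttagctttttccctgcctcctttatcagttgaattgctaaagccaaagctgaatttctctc
NAV2_6: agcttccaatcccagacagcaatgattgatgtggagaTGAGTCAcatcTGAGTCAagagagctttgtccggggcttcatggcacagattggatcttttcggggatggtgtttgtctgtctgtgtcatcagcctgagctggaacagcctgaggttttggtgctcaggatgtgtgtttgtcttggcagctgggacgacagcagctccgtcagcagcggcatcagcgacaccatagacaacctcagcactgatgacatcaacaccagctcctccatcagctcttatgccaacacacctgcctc
SPRED2_2: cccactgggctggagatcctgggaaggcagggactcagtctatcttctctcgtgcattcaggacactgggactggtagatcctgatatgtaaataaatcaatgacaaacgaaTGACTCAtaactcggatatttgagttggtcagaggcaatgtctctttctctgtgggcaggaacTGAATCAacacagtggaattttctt
EGFR_6 (chr7:55087748-55087947) and EGFR_11 (chr7:55200710-55200909) were intronic in EGFR. FOS_1 (chr14:75725772-75725971) lay upstream of FOS over the start of an unnamed long non-coding RNA. SEMA5A_2 (chr5:9562258-9562457), JUN_3 (chr1:59314628-59314927) and SPRED2_2 (chr2:65804158-65804357) had centres outside coding genes, and NAV2_6 (chr11:20057319-20057618) overlapped an exon of NAV2. SEMA5A_2, NAV2_6 and SPRED2_2 each held 2 AP-1 matches in the stretch shown.

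The constant distal regions covered 276 kb in all, with a median DHS width of 233 bp (range 164 to 1075 bp), against 205 bp for all PC9 DHS and 193 bp for distal ones. The rule required overlap, and the centre of the overlapping PC9R peak was a median of 48 bp away, against 41 bp for shared DHS with no H3K4me2. H3K4me2 covered the centre of the DHS in both lines at 832 of the 973 regions and in neither line at 40.  The peak score is the authors' own and its scale is not stated, so it is used only within a list. In the PC9 DHS list the constant distal regions had a median score percentile of 61.5, and their PC9R partners had one of 69.6 in the PC9R list. For shared DHS with no H3K4me2 these were 41.7 and 76.4, and for shared coding promoters 69.1 and 79.0. The PC9R partners of the members thus had the lowest median of these 3 shared classes.

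H3K4me2 regions over the members, which an overlap rule draws from wide peaks more often, had a median width of 1106 bp in PC9 and 819 bp in PC9R, against 546 bp and 395 bp over the whole lists. Over all distal PC9 DHS with an H3K4me2 region the medians were 978 bp and 629 bp, and over shared coding promoters 1606 bp and 1048 bp. The wider region of the pair was that of PC9 at 680 of 973 members (69.9%), the order that the medians of the whole lists also had. The widest in PC9, 11286 bp over ZMYND8_1, met a PC9R region of 586 bp. ALCAM_2 was covered by 5940 bp in PC9 and 896 bp in PC9R, and EGFR_6 by 5131 bp and 743 bp. ALCAM encodes a cell adhesion molecule and ZMYND8 a chromatin reader. Across the members, ranks of score in PC9 and PC9R had a Spearman correlation of 0.18 for DHS and 0.51 for H3K4me2 (n = 973 regions, each pair from the same 2 libraries, some regions sharing an H3K4me2 peak). The correlation for DHS was 0.35 over shared distal DHS with no H3K4me2 and 0.20 over shared coding promoters.

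Among the members with the highest DHS scores were TMEM106A_1 (score 74.1 in the PC9 list) and PPIAL4B_1 (62.2), at percentiles 99.8 and 99.7 of that list. Both were also among the highest of the members in the PC9R list, where TMEM106A_1 came first with 102.3. PPIAL4B_1 sat on the start of RNU1-59P, annotated as a small nuclear RNA gene. The members closest to the 1 kb limit were EGFR_6 at 1012 bp, DUSP1_2 at 1034 bp and EPS15_1 at 1040 bp from a coding TSS. The closest peaks on the other side, within 1 kb of a coding TSS and so not counted, were 995 bp from CYP27C1, 981 bp from ROR1 and 976 bp from YBX3.

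By position, most constant distal regions were intergenic. Position was that of the peak centre against coding genes only, so an intergenic region may lie in a non-coding gene. Of the 973, 601 (61.8%) were intergenic, 292 (30.0%) intronic and 80 (8.22%) had their centre in an exon. The nearest coding TSS was a median of 25830 bp away, with quartiles of 10400 and 61310 bp. That distance was 76020 bp for the 2541 distal DHS that both lines shared with no H3K4me2 in either, 24890 bp for the 2626 distal DHS found in PC9 only with H3K4me2 of PC9, and 30350 bp for the 4815 found in PC9R only with H3K4me2 of PC9R. Constant distal regions were as often upstream (486) as downstream (487) of the nearest start.

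A large minority of the regions had the composition or annotation of a promoter, although none was within 1 kb of a coding start. Coding starts were those of transcripts annotated as protein-coding, so starts of other transcripts of coding genes did not count. The start of a transcript that the rule did not use lay within 1 kb of 308 (31.7%), of which 211 were long non-coding RNAs, against 9.29% of shared DHS with no H3K4me2, 17.3% of PC9-only and 17.8% of PC9R-only DHS with H3K4me2, and 84.1% of the 4047 shared sites at coding promoters. Others among the 308 included 36 starts of transcripts with no defined coding sequence and 16 of transcripts with a retained intron. EGFR_6, for example, lay 895 bp from the start of an EGFR transcript with no defined coding sequence. Over the central 200 bp, 325 regions (33.4%) had over 50% GC and a ratio of observed to expected CpG over 0.6, called CpG-rich here. The CpG-rich share was 6.34% in shared DHS with no H3K4me2, 10.9% in PC9-only, 16.8% in PC9R-only and 86.5% at coding promoters. Of the 325 CpG-rich regions, 185 had the start of a transcript outside the rule within 1 kb, and 525 members were neither CpG-rich nor near such a start. CpG-rich regions were closer to coding genes (median 17870 bp) than the other 648 (30650 bp). Their H3K4me2 regions were also wider, with medians of 1384 bp in PC9 and 1008 bp in PC9R against 942 and 737 bp.

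**Figure D1:**
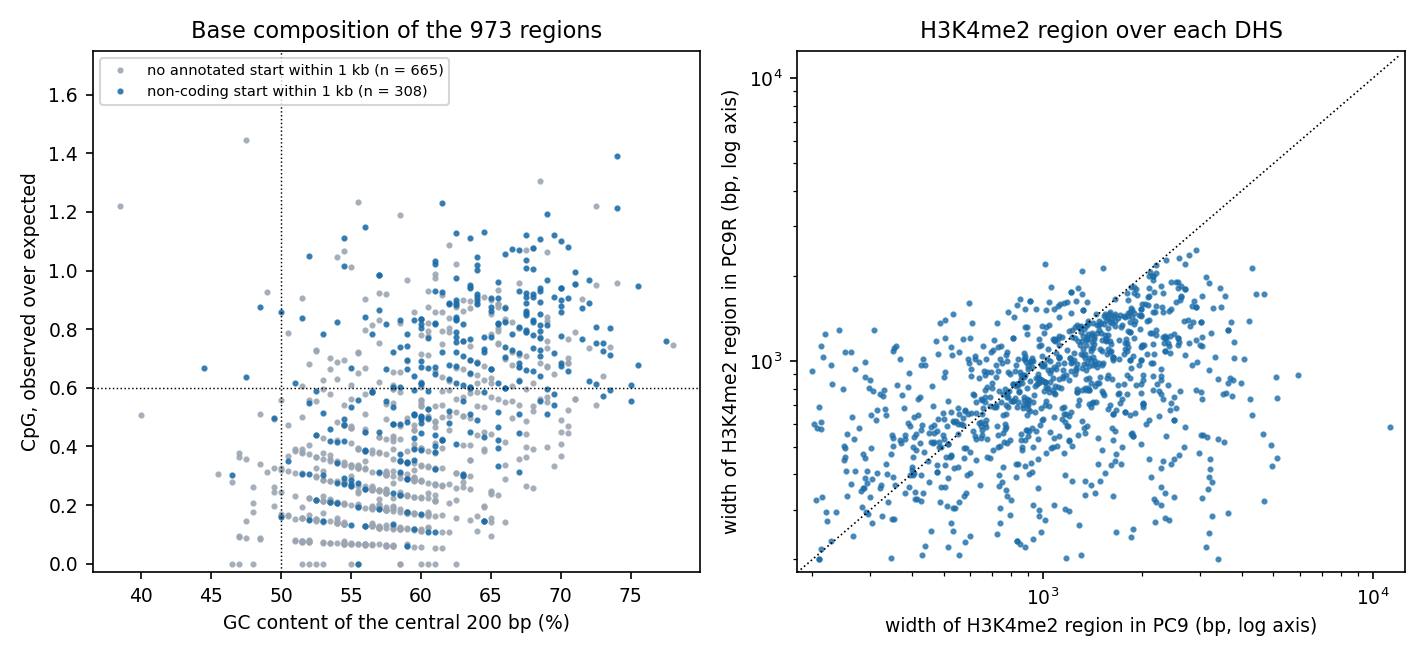
Left, each point is 1 of the 973 constant distal regions, by GC content (%) and observed over expected CpG of its central 200 bp, in blue where a transcript start outside the rule lies within 1 kb; the upper right quadrant holds the 325 CpG-rich regions. Right, width in bp of the H3K4me2 region over each DHS in PC9 and PC9R on log axes with the line of equal width, below which 680 regions lie.

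AP-1 letters were common beside the peak centres, not at them. Within 200 bp windows on the centres, TGANTCA occurred in 8.63% of constant distal regions (95% interval 6.94% to 10.6%), against 7.503% and 8.02% in windows 1 kb to either side. In 600 bp windows, a width chosen after seeing the data, 349 regions (35.9%, 32.9% to 39.0%) held a match, against 17.8% in flanking windows of that length. All flanks of 600 bp were centred 1500 bp from the peak centre, on the side of higher coordinates only. The density was 4.93 matches per 100 bp per 100 regions within 100 bp of the centre, 10.5 at 100 to 250 bp and 3.55 at 400 to 600 bp. Centring on the PC9R peaks gave 4.11, 9.45 and 3.57 on the same scale. Of the matches, 82.8% read TGACTCA or its reverse complement and 17.2% TGAATCA or its reverse complement. PC9 DHS peaks often came as neighbours at about this spacing. In that list 604 consecutive pairs of centres were 300 to 400 bp apart, against 297 at 200 to 300 bp and 83 at 900 to 1000 bp, and 169 members (17.4%) had another PC9 DHS centre within 600 bp. The part of peak placement in the motif profile was not tested.

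The AP-1 share stood between those of the other distal classes. PC9-only regions came from a list of 19648 DHS peaks and PC9R-only regions from one of 59600. The part of this difference in the shares was not tested. In 600 bp windows it was 52.7% (50.8% to 54.7%) at PC9-only and 22.7% (21.6% to 24.0%) at PC9R-only DHS with H3K4me2 of the same line, 15.03% at shared DHS with no H3K4me2 and 8.13% at shared coding promoters. These intervals do not overlap that of the constant distal regions at this width. In 200 bp windows the shares were 15.7% (14.4% to 17.2%) at PC9-only and 6.27% (5.60% to 6.99%) at PC9R-only DHS, and the latter interval overlaps that of the constant distal regions. Intervals treat regions as independent and cover counting error only. Among the members the share in 600 bp windows was 15.1% in CpG-rich regions and 46.3% in the others. Their flanks held 15.1% and 19.1%, so the CpG-rich regions equalled their flanks. Flanks held 16.9% at PC9-only and 17.5% at PC9R-only DHS with H3K4me2. They held 16.8% at shared DHS with no H3K4me2 and 15.1% at shared coding promoters, where the share at the centre was the lower one.

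SP/KLF letters (GGGCGGG) showed the opposite split and were dense at the centres as well as beside them. They occurred in 31.4% of 600 bp windows (28.4% to 34.4%; flanking windows 6.27%), in 57.5% of CpG-rich and 18.2% of other members. In PC9-only, PC9R-only and H3K4me2-free shared DHS the shares were 17.97%, 19.0% and 6.30%, and at coding promoters 63.9%. Both motifs occurred in 60 members (6.17%), and neither in 379 (39.0%). ETS letters (CGGAAGT) were in 5.14% of the 600 bp windows and 1.34% of flanks, and CRE letters in 4.63% and 1.13%. One of the CTCF core strings searched (AGGGGGC) was in 19.9% and 6.58%, whereas the other (AGATGGC) was in 10.5% and 9.04%. TEAD letters (CATTCC) were close to their flanks at 32.1% and 30.1%, as were RUNX letters (TGTGGTT), which had 10.3% in both. NKX2-1 letters (CACTTGA), the site of a lung lineage factor, were in 7.503% of windows and 14.2% of flanks. GC content differed between centres and flanks, and its part in these shares was not tested. A match of letters shows neither binding nor its absence.

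**Figure D2:**
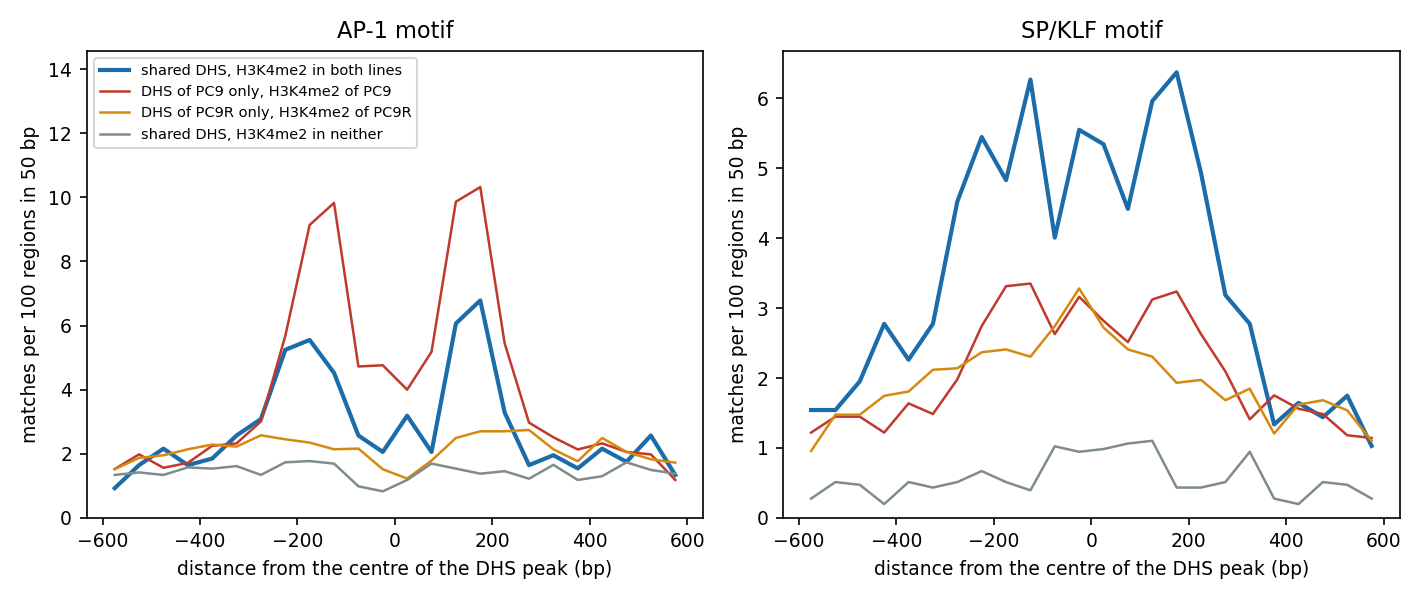
Motif matches per 100 regions in 50 bp bins by distance in bp from the DHS peak centre, for AP-1 (left) and SP/KLF (right), in constant distal regions (thick blue) and 3 other classes of distal DHS. AP-1 matches of constant distal regions peak at 100 to 250 bp on either side (10.5 per 100 bp per 100 regions) and lie below those of PC9-only DHS, while SP/KLF matches within 250 bp of the centre are higher in the constant distal regions than in the other 3 classes.

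The regions were spread over the genome with a few local concentrations. Of the 973, 810 had no other member within 12.5 kb, and the other 163 formed 77 groups of at most 4. Chromosome 1 held 143 and chromosome 7 held 95. On chromosome 17, 14.98% of distal PC9 DHS were constant distal regions, on chromosome 20 14.0%, and on chromosome 3, which had the most distal PC9 DHS (2053), 3.99%. The window with the most was 115 to 120 Mb of chromosome 1 with 24, where PC9 had 292 and PC9R 705 DHS peaks, followed by 105 to 110 Mb of chromosome 3 with 23, where they had 669 and 428. The medians over 5 Mb windows were 22 and 75 peaks. The 13 windows with over 5 times the median held 13.3% of the members, but 35.7% of the shared distal DHS with no H3K4me2. Copy number was not measured in these files, and its part in these concentrations was not tested.

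The nearest coding genes numbered 774. Of these, 635 had 1 member, 109 had 2, and 30 had 3 or more. EGFR had the most (13), followed by CCDC54 (7), CD47 and NAV2 (6 each), and JUN, SEC61G, TRIB1 and VANGL1 (5 each). The nearest gene is a label by distance, and these data do not show which gene a region acts on. Of the 774 genes, 420 (54.3%) were also nearest to a PC9R-only DHS with H3K4me2, where they made up 13.8% of that class's genes, and 277 (35.8%) to a PC9-only one, 14.3% of that class's genes.

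RNA libraries held 16013058 to 32515891 counts. In both lines the second library was the shallower one, and the differences between second and first libraries correlated across genes between the lines (r = 0.82). The submitted labels do not name these as batches. Among the lung epithelial markers, KRT7, KRT19 and EPCAM had at least 509 CPM in each library and KRT8 34.2 to 298, with marker CPM scaled by library total only. Of the alveolar genes, NKX2-1 had at most 1 count, SFTPC 0, SFTPB at most 9 and NAPSA at most 71. Of 5 leukocyte markers, CD68 had 7.93 to 18.5 CPM and the other 4, PTPRC included, at most 11 counts. Of 5 fibroblast markers, COL1A1 had 5.62 to 69.4 CPM and the other 4 at most 3 counts. The endothelial markers CDH5 and PECAM1 had 8.24 to 38.7 and 3.37 to 10.5 CPM, VWF at most 51 counts and KDR at most 1. NKX2-1, SFTPC, SFTPB and PTPRC have several accessions, as have others on these lists, so their low counts are not read as no expression. The part of these markers in the results was not tested.

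Nearest genes of constant distal regions had a median change close to 0 between the lines. Of the 774, 753 were in the count table and 553 passed the filter on low counts. Their median log2 fold change, PC9R minus PC9, was 0.02 (quartiles -0.42 and 0.44), against -0.01 over all 12660 genes tested. Between the first libraries of the lines the median difference was 0.05, and between the second it was 0.00 after rounding (-0.001). Within 2-fold of equality were 434 of the 553 (78.5%), against 81.1% of all genes. By edgeR's quasi-likelihood test with Benjamini-Hochberg adjustment at 0.05, 4 of the 553 (0.723%) were called, 3 higher in PC9R (0.542%) and 1 lower (0.181%). Over all genes tested 0.253% were called, 0.19% higher and 0.0632% lower. A fit with a term for the first and second libraries called 123 of the 553 (22.2%), 61 higher and 62 lower, against 20.8% of all genes, 11.2% higher and 9.57% lower. The 4 calls are few, and the 22.2% is close to its background of 20.8%. With 4 libraries that fit leaves 1 residual degree of freedom.

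Genes nearest to DHS found in 1 line had less even shares of calls. With the batch term, 15.7% of the 1861 tested genes nearest to PC9R-only DHS with H3K4me2 were higher in PC9R and 8.65% lower, with a median log2 fold change of 0.10 in the fit without it. For the 1418 nearest to PC9-only DHS the shares were 9.38% and 13.6% and the median -0.08. For the constant distal regions they were 11.0% and 11.2%. The classes share genes and all use the same 4 libraries, so these values stand side by side without a test. By number of members per gene, 20.3% of genes with 1, 32.1% of the 78 tested genes with 2 and 26.9% of the 26 with 3 or more were called with the batch term.

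**Figure D3:**
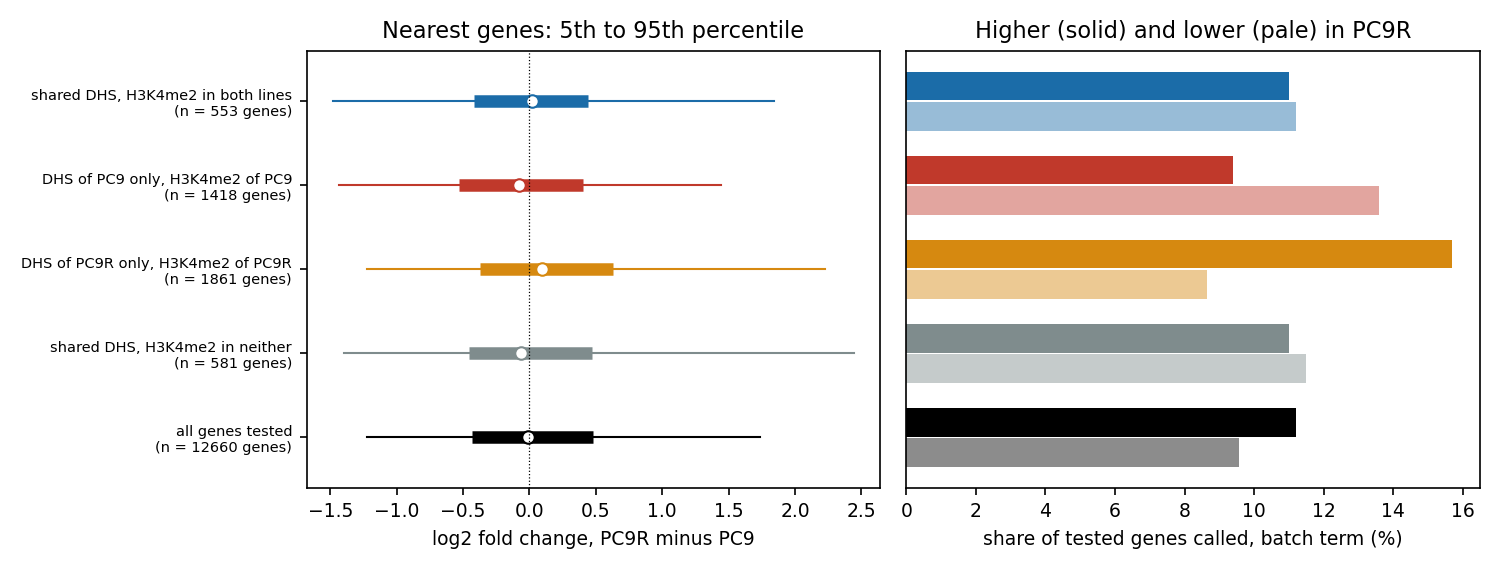
Left, log2 fold change of nearest genes (PC9R minus PC9, fit without batch term) for 4 classes of distal DHS and all 12660 genes, as the median (circle), quartiles (thick bar) and 5th to 95th percentile (thin line). Right, share (%) of tested genes called higher (solid) or lower (pale) in PC9R with the batch term, with constant distal regions at 11.0% and 11.2% and all genes at 11.2% and 9.57%.

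RNA levels of the nearest genes were set beside those of all tested genes. Levels per length were taken as RPKM for the 339 tested nearest genes with 1 transcript accession and a length. Their median was 8.87 and 11.2 RPKM in the PC9 libraries and 11.7 and 11.0 in the PC9R libraries, against 9.16 and 9.66, and 9.08 and 9.51, over all such genes. At least 1 RPKM in all 4 libraries was reached by 264 of them (77.9%) and by 76.9% of all such genes, and at least 10 RPKM by 141 (41.6%) and 37.6%. With genes of several accessions included, the medians over the libraries of a line fell from 10.1 to 3.44 RPKM in PC9 and from 11.3 to 3.42 in PC9R. The 11 with 3 or more members had medians of 23, 28.1, 35.5 and 38.5 RPKM. Genes beside a region with AP-1 letters within 300 bp (118 with a level) had medians of 11.7, 14.7, 20.1 and 17.9 RPKM, and those beside regions with none (244) 8.47, 9.56, 9.99 and 9.48. These subsets were formed after the data were seen, some genes are in both, and no test was made of the difference.

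EGFR, the receptor that gefitinib inhibits, was the gene with the most constant distal regions. They lay from 1012 to 90972 bp from a coding EGFR start, 7 of the 13 in its introns. EGFR had 1868 and 2052 CPM in the PC9 libraries and 531 and 1022 CPM in the PC9R libraries. Both PC9R values were below both PC9 values. The log2 fold change was -1.34 ± 0.51 (SE, edgeR adjusted p = 0.538), and -1.41 ± 0.23 with the batch term (adjusted p = 0.00448). EGFR has 4 accessions, so its values cover only the reads that were counted. The neighbouring SEC61G, a subunit of the protein-conducting channel of the endoplasmic reticulum, had 77.4 and 147 CPM in PC9 and 30.7 and 58.3 in PC9R. VOPP1, with 2 members, had 374 and 478 CPM in PC9 and 154 and 216 in PC9R. With the batch term both were called lower, at adjusted p = 0.00344 each (0.76 and 0.669 without it). These 3 were the tested nearest genes of the 23 regions within 2 Mb of EGFR, and all 3 were lower in both PC9R libraries. The 23 regions were 2.36% of the members. That share was 4.55% for all distal PC9 DHS and 9.41% for shared ones with no H3K4me2. It was 0.80% for PC9-only and 0.39% for PC9R-only DHS with H3K4me2. VOPP1 was named after its values were seen. In the 5 Mb windows from 50 and 55 Mb of chromosome 7, PC9 had 417 and 210 DHS peaks and PC9R 648 and 326, so DHS were dense there in both lines, and the part of copy number in the RNA difference was not tested.

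A list of MAPK feedback genes, which damp signalling below EGFR, and ERK output genes, which need not, held the nearest genes of 6 regions. Of the 16 genes on that list, 5 were nearest genes (DUSP4, DUSP5, IER3, SPRED2 and SPRY2), and none was called without the batch term. The median log2 fold change of the 5 was 0.009. With it, SPRED2 and SPRY2 were called lower, against 6 of 14 tested genes of the whole list and 9.57% of all genes tested. SPRED2, an inhibitor of RAF activation with 2 members, had 27.4 and 12.8 CPM in PC9 and 11.0 and 5.77 in PC9R (batch term log2 fold change -1.24 ± 0.24, adjusted p = 0.0098, and 0.853 without it). With no batch term its log2 fold change was -1.26, and -0.62 when the first PC9 library was left out. SPRY2 had 36.6 and 43.98 CPM in PC9 and 21.0 and 15.9 in PC9R (adjusted p = 0.0158, and 0.817 without it). For both genes both PC9R values were below both PC9 values. The ERK phosphatase gene DUSP5 had 154 CPM in both PC9 libraries and 183 and 133 in PC9R. IER3, an early response gene, had 402 and 316 CPM in PC9 and 297 and 426 in PC9R. Neither DUSP5 nor IER3 was called in either fit, and their lines overlapped.

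FOS, JUN and MAF were the nearest genes from the AP-1 family, with 8 regions. JUN, with 5 regions 30033 to 148938 bp upstream, had 479 and 328 CPM in PC9 and 404 and 457 CPM in PC9R. FOS had 729 and 2219 CPM in PC9 and 755 and 938 in PC9R. Neither was called in either fit (adjusted p = 0.999 each without and 0.736 and 0.18 with the batch term). None of the 8 tested genes of the whole AP-1 list was called with the batch term, against 20.8% of all genes tested. MAF, the nearest gene of 1 region with an AP-1 match that lay 426508 bp from its TSS, had 0 counts in all 4 libraries. Its accessions number 2, so 0 is not read as no expression.

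Among epithelial and lineage factors, GRHL2, ELF3, EHF and TP63 were nearest genes. GRHL2, which maintains epithelial junction genes, had 283 and 332 CPM in PC9 and 288 and 350 in PC9R, and the lines differed by less than the libraries of a line. ELF3, an epithelial ETS factor with 4 regions, had 1.13 and 0.534 CPM in PC9 and 3.13 and 1.78 in PC9R, and was called higher with the batch term only (adjusted p = 0.022, and 0.786 without it). With no batch term its log2 fold change was 1.54, and 2.19 when the first PC9 library was left out. EHF had at most 4 counts and TP63 had 0 in each library. The keratin gene KRT8 had 304 and 36.6 CPM in PC9 and 147 and 43.99 in PC9R, a spread between libraries larger than that between lines. KRT8 has processed pseudogenes that may share its reads. The integrins ITGA3, ITGA6 and ITGB1, each with 1 region, were not called in either fit. ITGB1, the common beta chain, had 15.96 and 12.8 CPM in PC9 and 14.2 and 16.1 in PC9R.

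FN1, which encodes the matrix protein fibronectin, was the nearest gene on the mesenchymal list and had 2 regions. It had 0.314 and 0.667 CPM in PC9 and 7.46 and 10.4 CPM in PC9R. Its log2 fold change was 4.22 ± 0.77 (adjusted p = 0.0772), and with the batch term 4.26 ± 0.36 (adjusted p = 0.000276). The NF-kB gene BIRC3, an inhibitor of apoptosis, had 5.65 and 27.6 CPM in PC9 and 17.4 and 33.1 in PC9R, and was called in neither fit. KDM5B and KMT2C, an H3K4 demethylase and an H3K4 methyltransferase, were nearest genes with 1 region each. KDM5B had 229 and 273 CPM in PC9 and 389 and 244 in PC9R, KMT2C had 156 and 207 and then 181 and 187, and neither was called. SKIL of the TGF-beta list had 0 counts, and no gene of the YAP and TEAD list of 13 was a nearest gene.

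Of the other genes with the most regions, 3 had next to no counted RNA. CCDC54 with 7 regions had at most 4 counts in a library, NAV2 with 6 at most 8, and VANGL1 with 5 at most 6. NAV2 and VANGL1 have 5 and 3 accessions. CD47, the cell surface signal against phagocytosis, had 5.55 and 10.6 CPM in PC9 and 5.72 and 8.74 in PC9R. TRIB1, a pseudokinase, had 147 and 326 CPM in PC9 and 145 and 225 in PC9R. Neither was called in either fit. CD47, like BIRC3, ELF3, FN1, ITGA6, ITGB1, KRT8, SEC61G, SPRED2 and TSC22D3, has several accessions, so its values cover only the reads that were counted.

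The 4 genes called without the batch term had large differences, though they were the nearest genes of regions open and marked in both lines. For GRK3 these regions lay 116384 and 163488 bp from the TSS, for ZNF287 33376 bp and for SMIM10 12977 bp. SLC2A3, a glucose transporter, had 1.38 and 2.54 CPM in PC9 and 305 and 157 in PC9R, a log2 fold change of 6.90 ± 0.79 (adjusted p = 0.0359). Its close paralog SLC2A14 may share reads with it. Its region lay 34630 bp from the TSS under H3K4me2 regions of 2533 bp in PC9 and 1911 bp in PC9R. The zinc finger gene ZNF287 had 2 and 1 counts in PC9 and 453 and 310 counts in PC9R, a ratio of 230 (exact 95% counting interval 78.2 to 1120) after scaling (adjusted p = 0.0359). GRK3, a kinase of activated receptors with 2 regions, had 0.125 and 0.2 CPM in PC9 and 7.01 and 12.4 in PC9R, a log2 fold change of 5.91 ± 0.84 (adjusted p = 0.0425). SMIM10 had 224 and 156 counts in PC9 and 0 in both PC9R libraries, at least 140-fold lower against 3 counts over the PC9R group (adjusted p = 0.0362). None of the 4 was called with upper-quartile scaling, where the smallest adjusted p among the 553 was 0.0536 and 51 had an unadjusted p under 0.05.

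By size of the change with the batch term, among genes with at least 10 CPM on average in the higher line, ZNF287 and SLC2A3 were followed by 4 more genes that were higher in PC9R. SEMA5A, a guidance receptor with 2 regions, had 19.2 and 19.7 CPM in PC9 and 469 and 155 in PC9R. FAM20C, a kinase of secreted proteins, had 21.7 and 3.27 CPM in PC9 and 255 and 72.1 in PC9R. BPIFB1, an airway secretory protein, had 3.64 and 2.40 CPM in PC9 and 341 and 39.7 in PC9R. TSC22D3, a glucocorticoid-induced regulator, had 2.85 and 0.868 CPM in PC9 and 23.1 and 5.89 in PC9R. Each of these 4 was higher in both PC9R libraries than in either PC9 library. Their adjusted p values were 0.000159 to 0.000629 with the batch term and 0.0772 to 0.338 without it. Leaving out the first PC9R library lowered the log2 fold change with no batch term in all 4, from 5.97 to 3.71 for BPIFB1 and from 2.94 to 1.64 for TSC22D3, for example.

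The 6 genes named as lower in PC9R with the batch term followed the same limit. The homeobox gene SIX2 had 37.8 and 27.6 CPM in PC9 and 3.59 and 2.497 in PC9R. OSR1, a zinc finger factor with 2 regions, had 13.6 and 7.01 CPM in PC9 and 1.97 and 1.01 in PC9R. DKK1, a secreted Wnt inhibitor with 2 regions, had 382 and 665 CPM in PC9 and 47.6 and 157 in PC9R. OLFML3, a secreted olfactomedin-like protein, had 1782 and 2651 CPM in PC9 and 199 and 664 in PC9R. The ephrin ligand EFNB2 had 176 and 371 CPM in PC9 and 23.1 and 94.2 in PC9R. ODC1, the first enzyme of polyamine synthesis, had 737 and 1895 CPM in PC9 and 107 and 761 in PC9R, where the lines overlapped. Adjusted p values of these 6 were 0.000168 to 0.00455 with the batch term and 0.0838 to 0.868 without it. With no batch term, the log2 fold change of ODC1 was -1.60, and -3.65 without the second PC9R library and -0.79 without the first. The unlogged fold changes of DKK1, OLFML3 and EFNB2 also moved over 1.5 times when either of these libraries was left out.

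The nearest genes with the highest level per length were high in both lines. TMSB10, an actin-binding thymosin, had 3550 and 4319 RPKM in PC9 and 2372 and 2546 in PC9R. S100A11, a calcium-binding protein, had 1279 and 1321 RPKM in PC9 and 1628 and 1659 in PC9R. AKR1B1, an aldose reductase, had 909 and 787 RPKM in PC9 and 992 and 1079 in PC9R. The chaperone gene HSPB1 had 750 and 233 RPKM in PC9 and 881 and 233 in PC9R, so that its libraries paired by order and not by line. XRCC5, a subunit of the Ku heterodimer of DNA repair, had 225 and 474 RPKM in PC9 and 133 and 371 in PC9R, with the second library higher in both lines. CCT5, a subunit of the cytosolic chaperonin, had 350 and 502 RPKM in PC9 and 151 and 375 in PC9R. FOS and OLFML3 completed this group of 8. Without the batch term none of the 8 was called. With it, TMSB10, CCT5 and OLFML3 were called lower in PC9R (adjusted p = 0.027, 0.0324 and 0.000844), against 9.57% of all genes tested.

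**Figure D4:**
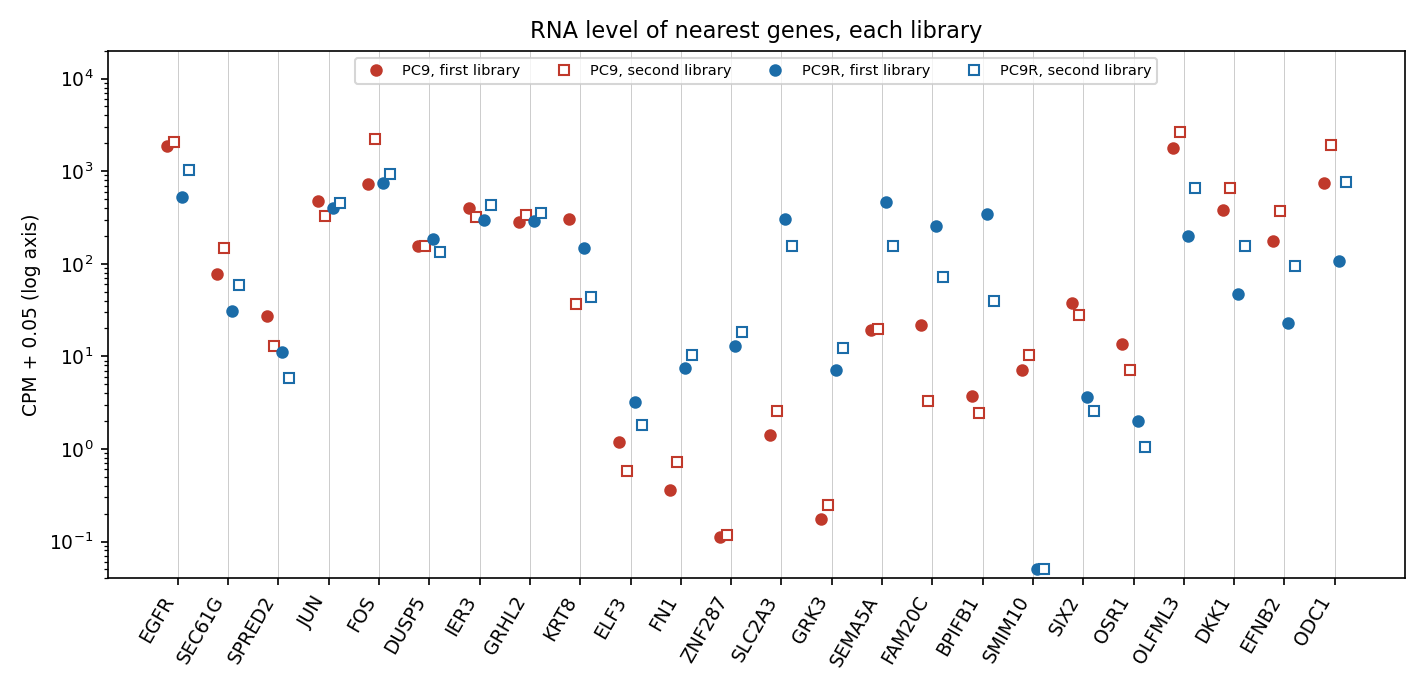
RNA level (CPM + 0.05, log axis) of 24 nearest genes of constant distal regions in the first (circle) and second (square) library of PC9 (red) and PC9R (blue). JUN, FOS, DUSP5, IER3, GRHL2, KRT8 and ODC1 overlap between lines. EGFR has 531 and 1022 CPM in PC9R against 1868 and 2052 in PC9, and SMIM10 has 0 counts in PC9R.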

How the data were processed

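Per the submitters' processing notes, MACS2, TopHat, HTSeq, DESeq and hg19 were used, with versions and thresholds not given in the sources used here. Deposited by the authors were 1 peak list per DHS and H3K4me2 library, with a score per peak, and RNA read counts per transcript accession. Counts of 42811 accessions were summed per gene (41556 matched a RefSeq symbol). The 8198 genes with several accessions held 6.74% to 7.07% of counts, so their low values are not read as low expression. TSS, exons and lengths came from GENCODE 44 lifted to GRCh37, and sequence from GRCh37, which is hg19. Overlaps used bedtools 2.31.1 (1 bp). Motif letters were searched on both strands.

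All 4 RNA libraries entered edgeR 4.0.16 in R 4.3.3 (TMM, filterByExpr, quasi-likelihood F test, two-sided, Benjamini-Hochberg over 12660 genes, adjusted p under 0.05; no block). Positive log2 fold changes mean higher in PC9R, and CPM are TMM-scaled, except for the cell type markers, which are scaled by library total only. RPKM used merged exon length, and medians of level were taken as log2(RPKM + 0.1). The batch term is the library number, which the titles share between lines. The pairing check gave a correlation of second-minus-first differences of 0.819, but the labels state no shared batch. The code was tested on simulated data. The simulated counts had no difference between first and second libraries, so that test does not cover the variation among these libraries. Alternatives were other scalings, filters, DESeq2 1.42.0, the batch term, leaving out each library, and other overlaps, distances and windows.

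Members, gene lists and motifs were chosen with earlier results of these data known. Named genes were EGFR, the 8 with the most regions, those called, the 8 highest in RPKM, up to 3 per list, and up to 6 per direction with the batch term; regions were the 3 highest in DHS score in each line, the 3 widest in PC9 H3K4me2 and the 3 nearest each side of 1 kb. SPRY2, DUSP4, VOPP1 and TP63 were named outside this rule after their values were seen. A region that this rule selects is not reported here.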

Additional observations from a re-analysis of the deposited data

How the results depend on the processing

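The 4 calls among nearest genes became 123 with the replicate block, 26 with no filter on low counts, 7 with a stricter one, 25 with DESeq2 and 0 with upper-quartile scaling (unadjusted p under 0.05 in 51, smallest adjusted p 0.0536), and 6 to 20 when 1 RNA library was left out (7 without the second PC9 library, 8 without the first PC9R library, 20 without the second). The 4 genes stayed called in all of these but upper-quartile scaling, and the count was 3 or 4 with RLE scaling, other nearest-gene rules, regions away from EGFR or outside DHS-dense windows. The replicate block is not a stated pairing: the lines share only library numbers. The median log2 fold change of 0.016 ranged from -0.156 to 0.104 with 1 library left out, and the median level fell from 10.1 and 11.3 RPKM to 3.44 (PC9) and 3.42 (PC9R) when genes with several accessions were included. The number of 973 regions was 665 to 958 under 9 other rules and 358 with only peaks above the median score of each list. The AP-1 share of 8.63% was 13.3% over whole peaks, 4.52% in 100 bp and 35.9% in 600 bp windows, the last chosen after seeing the data, as were the DHS-dense windows. Some genes that were not called in the fit with no block changed direction. IER3 had -0.004 with RLE scaling, the block and DESeq2 and -0.013 with no filter, and KMT2C -0.007 with RLE scaling and DESeq2. With 1 library left out, log2 fold changes ranged from -0.288 to 0.250 for IER3, -0.215 to 0.234 for DUSP5, -0.177 to 0.387 for JUN, -1.400 to 0.193 for FOS, -0.110 to 0.189 for GRHL2, -1.948 to 1.377 for KRT8, -0.306 to 1.352 for ITGA3, -0.104 to 0.235 for ITGB1, -1.800 to 0.646 for ITGA6, -0.135 to 2.140 for BIRC3, -0.036 to 0.619 for KDM5B, -0.181 to 0.207 for KMT2C, -0.563 to 0.357 for CD47, -0.826 to 0.311 for TRIB1, -1.075 to 1.245 for HSPB1 and -1.413 to 0.149 for XRCC5. Of genes called with the batch term only, several had an unlogged fold change that moved over 1.5 times when a library was left out of the fit with no block. Their log2 values follow. Without the first PC9 library SPRED2 went from -1.260 to -0.617, ELF3 from 1.537 to 2.189, FAM20C from 3.704 to 5.630 and TSC22D3 from 2.937 to 4.045. Without the second, FAM20C was 2.878, TSC22D3 2.310, EFNB2 -1.597 (from -2.222) and ODC1 -0.776 (from -1.601). Without the first PC9R library BPIFB1 was 3.708 (from 5.967), FAM20C 2.524, SEMA5A 2.994 (from 4.002), TSC22D3 1.636, OLFML3 -1.734 (from -2.360), DKK1 -1.737 (from -2.359), EFNB2 -1.533 and ODC1 -0.786. Without the second, these were 6.795 for BPIFB1, 4.335 for FAM20C, 3.593 for TSC22D3, -3.491 for OLFML3, -3.478 for DKK1, -3.582 for EFNB2, -3.645 for ODC1 and -1.509 for CCT5 (from -0.696). In fits that leave 1 library in a line, that library is assumed to vary like those of the other line. The cause of these changes was not tested. Depth limits genes such as ZNF287, with 3 counts in PC9 in all.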
